A study of Mus musculus with 6 samples.

Results

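The genes described here encode the cytosolic ribosomal proteins, the protein parts of the ribosomes that translate most of a cell's messenger RNA. Members were taken by gene symbol: every probe set with a single symbol of the Rpl or Rps series, or equal to Rplp0, Rplp1, Rplp2 or Rpsa, with the probe set of highest mean log2 intensity standing for its gene. This gave 49 genes of 18194 measured, 26 of the large and 23 of the small subunit. No difference between the groups entered the choice. Another 28 genes of the same naming series were named only on probe sets that list several genes, and are not members.

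RNA was measured on 6 Affymetrix arrays of mouse leukaemic progenitors, 3 per group. In the N1-IC group the donor cells had the genotype EF1α wt/lsl-N1-IC ROSA wt/CreERT2, in which tamoxifen-activated Cre is meant to release the intracellular domain of Notch1 from a stop cassette. In the WT group the donor cells were EF1α wt/wt ROSA wt/CreERT2. Both groups carried the Cre, received tamoxifen (2 injections of 0.2 mg per g, every other day) and carried the leukaemia fusion MLL-AF9 with a YFP marker, delivered to cKit+ cells by infection. Lethally irradiated wild-type hosts aged 12 weeks received 50000 of these cells with 250000 wild-type bone marrow cells as support, were injected 4 weeks later and were analysed 6 days after the last dose. The sorted cells, LGMP, were lineage negative, cKit+, Sca1-, YFP+, CD34+ and FcgRII/III+. All N1-IC samples were labelled female and all WT samples male, so genotype and sex cannot be told apart. The labels do not say how many hosts stood behind a sample, so the p-values speak of the spread among the samples deposited, which may be technical.

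A ribosome joins a small subunit, which holds the messenger RNA and reads its codons, to a large subunit, which forms the peptide bonds. Each ribosomal protein is needed in about equal number, and the genes are transcribed at high rates in dividing cells such as myeloid progenitors. Their messenger RNAs begin with a run of pyrimidines, the terminal oligopyrimidine (TOP) tract, through which growth signals control their translation. Loss of 1 copy of several of these genes causes red cell failure in human, in Diamond-Blackfan anaemia.

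The start sites are shown first, since the TOP tract lies at the start of the messenger RNA. RefSeq promoter windows (build GRCm38.p6, 250 bases before to 50 bases after an annotated start) were available for 43 members, of which 36 had 1 annotated start. The 30 bases around the start, 15 of them upstream, are printed for 7 members with strong signal and a pyrimidine word at the start, then for Rpl12, Rpl39 and Rpl39l, 3 of the members with weak signal: Rpl12 has the smallest p, Rpl39l the largest difference, and Rpl39 is its paralog. Capitals mark 4 pyrimidine words on the gene's own strand. They are CTTTC and CTTTT, and the words CTCTT and CCTTT, and they can overlap each other.
Rpl35, chr2:39005117-39005146, minus strand: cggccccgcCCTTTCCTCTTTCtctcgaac
Rpl27a, chr7:109519180-109519209, plus strand: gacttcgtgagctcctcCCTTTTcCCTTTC
Rpl38, chr11:114668565-114668594, plus strand: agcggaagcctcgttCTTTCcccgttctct
Rplp2, chr7:141447636-141447665, plus strand: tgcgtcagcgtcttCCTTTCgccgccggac
Rps6, chr4:86857353-86857382, minus strand: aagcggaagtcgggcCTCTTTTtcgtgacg
Rps10, chr17:27635230-27635259, minus strand: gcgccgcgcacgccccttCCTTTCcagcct
Rps18, chr17:33955651-33955680, minus strand: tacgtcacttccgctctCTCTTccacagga
Rpl12, chr2:32961697-32961726, plus strand: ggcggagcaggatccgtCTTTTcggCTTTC
Rpl39, chrX:37085208-37085237, minus strand: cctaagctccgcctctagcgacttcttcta
Rpl39l, chr16:10170213-10170242, plus strand: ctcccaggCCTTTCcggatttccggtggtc

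At least 1 of the 4 words lay within 10 bases before to 20 bases after a start in 16 of the 43 members (37.2%), against 3419 of 27025 genes with a window (12.7%). By subunit, 10 of 24 large-subunit and 6 of 19 small-subunit members had one. These shares are not shares of genes with a TOP tract, since a pyrimidine run can hold none of the words. The word CGGAAG, the core bound by ETS factors such as GABP, was sought on both strands of the whole window. It was found in 30 of 43 members (69.8%), against 18.8% of all genes with a window. AAGATGG, part of the site of the factor YY1, was found on either strand in 8 of 43 members (18.6%), against 7.28% of all genes with a window. The genes with a window include genes not measured here and were not matched to the members by signal level. The ETS and YY1 words can share letters where they adjoin, and a match describes the sequence only. Genes with several starts counted once, if any window held the word.

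**Figure D1:**
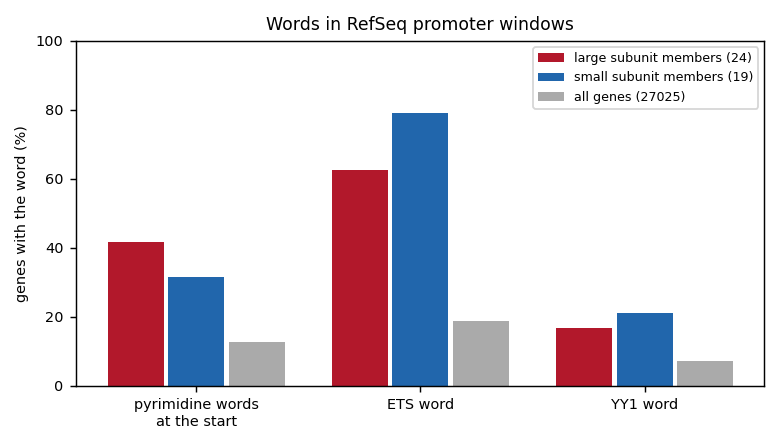
Share of genes (%, vertical axis) with each kind of word in a RefSeq promoter window, for large-subunit members, small-subunit members and all genes with a window. The ETS word was present in 62.5% of large-subunit and 78.9% of small-subunit members, against 18.8% of all genes.

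Facts of the whole series that bear on the members are few. Values are intensities, analysed as log2, and array medians lay between 5.63 and 5.67 log2 units. The genes behind the sort gate that were measured (Kit, Cd34, Fcgr3 and Fcgr2b) had values of 10.05 to 13.12 on all 6 arrays, and all 4 had a negative log2 fold change. Cd34 had 11.04, 10.05 and 11.28 in N1-IC, against 11.69, 11.52 and 11.33 in WT, with every N1-IC array below every WT array and a limma adjusted p of 0.618. Of 12 B and T lineage markers, 11 lay between 2.91 and 7.62 on every array. Cd79b, part of the B cell receptor, was the exception, with 11.32, 11.25 and 11.31 in N1-IC, against 11.47, 11.01 and 10.92 in WT. The 14 late granulocyte markers had array means of 9.94 to 10.46 in N1-IC, and of 7.53 in WT replicate 1 against 9.78 and 10.17 in the other WT arrays. The 13 erythroid markers had means of 6.01 to 6.86 in N1-IC, and of 9.80 in WT replicate 2 against 5.89 and 6.96 in the other WT arrays. Their part in the results below was not tested except by leaving out each array. In sorted bulk RNA, fewer cells of a type and less RNA per cell cannot be told apart. Notch1, whose intracellular domain the transgene encodes, had 11.08, 11.31 and 11.59 log2 units in N1-IC, against 11.54, 11.38 and 11.07 in WT. The groups overlapped, and whether its probes lie in the part encoded by the transgene was not tested. Nrarp, a Notch feedback gene, had 8.01, 9.74 and 11.33 log2 units in N1-IC, against 7.22, 6.96 and 6.41 in WT. All 3 N1-IC arrays lay above the WT arrays, but the gene did not pass the limma test, with an adjusted p of 0.618.

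The comparison of N1-IC with WT called no ribosomal protein gene in either direction, which does not show that all are equal. In limma, 0 of 49 members passed a Benjamini-Hochberg adjusted p under 0.05, where 0.0055% of all genes did, and the smallest adjusted p among members was 0.618. At an unadjusted p under 0.05 there were 0 members, where the same count over all genes was 7.98%. The median log2 fold change was 0.015 over the 26 large-subunit members and -0.0067 over the 23 small-subunit members, beside 0.012 over all genes. Of the large-subunit members 17 had a positive and 9 a negative log2 fold change, and of the small-subunit members 9 a positive and 14 a negative one, where 52.6% of all genes were positive. These signs depend on scaling: with arrays centred on their medians, which moved the median of all genes to 0.081, 24 of 26 large-subunit and 22 of 23 small-subunit members were positive. The difference between the subunits was not tested.

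**Figure D2:**
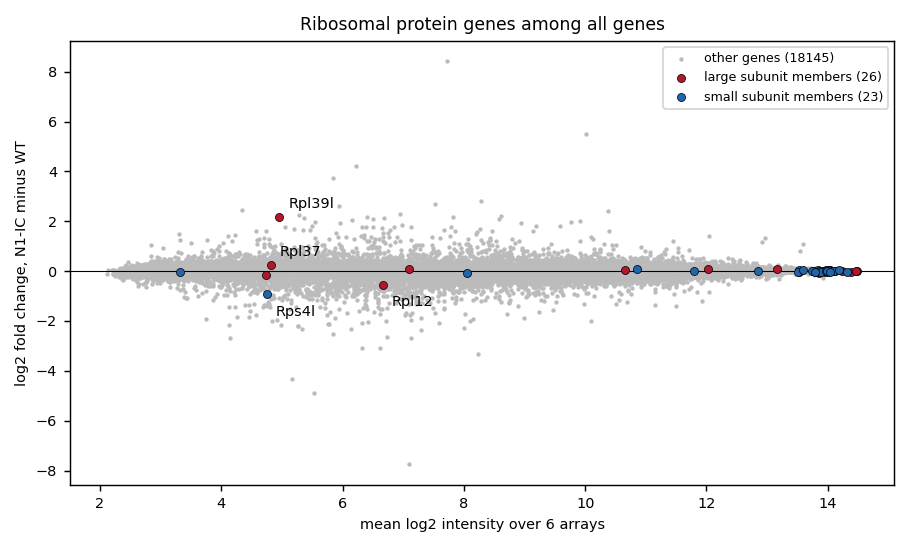
Log2 fold change, N1-IC minus WT (vertical axis), against mean log2 intensity over 6 arrays (horizontal axis) for the other genes (grey), 26 large-subunit members (red) and 23 small-subunit members (blue). Most members lie at the right end close to 0, and Rpl39l (2.17) and Rps4l (-0.91) lie farthest from 0 at low signal.

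Members with strong and with weak signal have to be kept apart, and the bounds of 10 and 13 log2 units used for this were chosen after the values were seen. In 41 members the probe set had a mean of at least 10 log2 units, and in 36 of these at least 13. The 36 lay at 13.01 to 14.54 on every array, at or above 98.8% of the probe sets of their array, and the highest value of any probe set on any array was 14.55. Close to the top of the scale an array may compress differences, which was not tested. In the other 8 members (Rpl12, Rpl37, Rpl39, Rpl39l, Rpl3l, Rps16, Rps27 and Rps4l) the single-symbol probe set had a mean of 3.32 to 8.06. For such genes a low value is the value of that probe set. It does not show that the ribosomal protein is little expressed.

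Among the 41 members with a mean of at least 10, all log2 fold changes lay between -0.063 and 0.092. As ratios of N1-IC to WT these run from 0.957 to 1.07. Between -0.1 and 0.1 lay 44 of 49 members, where 38.9% of all genes did. That share moves with signal level: at a mean of at least 13 it was 36 of 36 members and 193 of the 244 other genes (79.1%). The residual SD of the 36 members of at least 13 had a median of 0.025, against 0.059 for the other 244 genes of that level and 0.17 for all genes. The median size of their log2 fold changes was 0.021, against 0.045 for those 244 genes and 0.14 for all genes. Over the 6 arrays a member of this kind spanned 0.022 to 0.25 log2 units from its lowest to its highest value, with a median span of 0.064.

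The intervals describe the measured intensities, and where an array compresses strong signals they do not bound the change in RNA. In limma, which draws each gene's variance towards that of all genes, 38 of 49 members had a 95% interval wholly within 0.32 log2 units of 0, where 18.1% of all genes did. Here too level matters, since 190 of the 244 other genes of at least 13 (77.9%) and 36 of 36 members of that level had such an interval. All 41 members of at least 10 log2 units had one within 1.5-fold. With a variance trend along signal level the standard errors of the 36 members of at least 13 were 0.017 to 0.066, in place of 0.076 to 0.099. Their smallest unadjusted p was then 0.0569, with an adjusted p of 0.605 as the smallest.

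**Figure D3:**
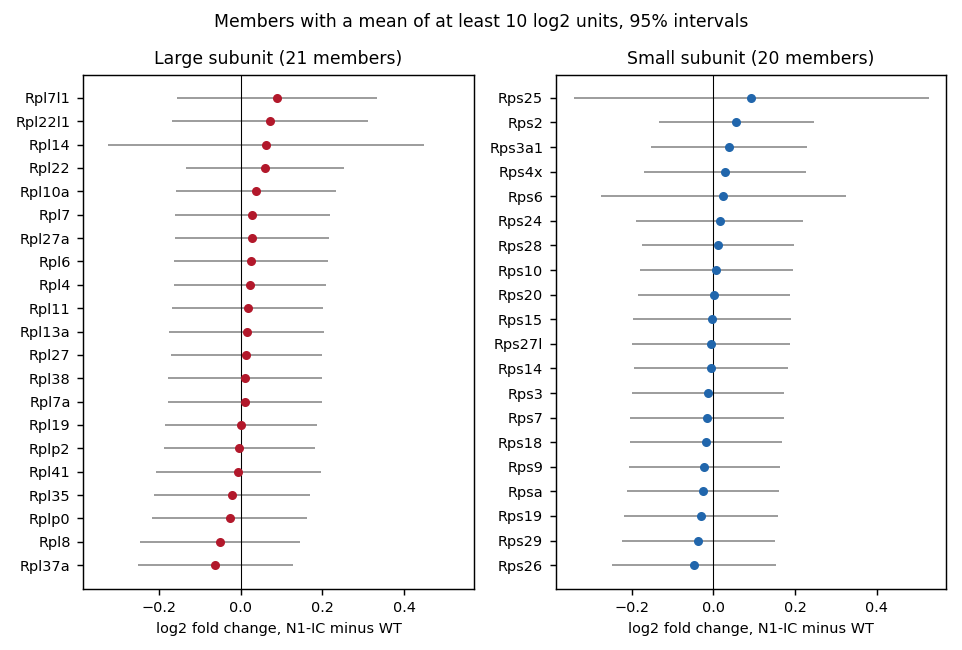
Log2 fold change, N1-IC minus WT (horizontal axis), with limma's 95% intervals for the 21 large-subunit and 20 small-subunit members with a mean of at least 10 log2 units. Every interval crosses 0, and the widest, of Rps25, runs from -0.34 to 0.53.

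Where samples of one group all lay above those of the other, the gaps were narrow. Groups did not overlap in 5 of 49 members (10.2%), where 14.8% of all genes did. N1-IC was the higher group in 2 of them, where 8.32% of all genes were of that kind, and the lower group in 3, where 6.52% were. Rps2, at the entry of the messenger RNA path, had 13.55, 13.54 and 13.57 log2 units in N1-IC, against 13.46, 13.51 and 13.52 in WT. All 3 N1-IC arrays lay above the WT arrays, by 0.056 ± 0.078 (limma standard error) in log2 fold change, with a limma adjusted p of 0.819. Rpl37a had 13.81, 13.82 and 13.84 in N1-IC, against 13.91, 13.91 and 13.84 in WT, and a log2 fold change of -0.063 ± 0.078. The lowest WT array of Rpl37a exceeded the highest N1-IC array only in the third decimal. Rps29, mutated in some families with Diamond-Blackfan anaemia, had 13.99, 13.99 and 14.00 in N1-IC, against 14.04, 14.04 and 14.00 in WT, with a log2 fold change of -0.037 ± 0.077. Rps18, named after its values were seen, had a log2 fold change of -0.018 ± 0.077, and Rpl37, the remaining gene, is described with the low-signal members.

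The stalk of the large subunit, which recruits elongation factors, is made of Rplp0, Rplp1 and Rplp2 on a base that includes Rpl12. Rplp0 had 13.77, 13.79 and 13.83 log2 units in N1-IC, against 13.84, 13.84 and 13.79 in WT, and the groups overlapped. Rplp2, a phosphoprotein of the stalk, had 14.47 on all 3 N1-IC arrays, against 14.49, 14.46 and 14.47 in WT, a log2 fold change of -0.0033 ± 0.076. Rplp1 was named only together with another gene and so was not measured as a member. Rpl12 had the smallest p of all members: 6.85, 6.15 and 6.18 in N1-IC, against 7.17, 6.69 and 6.96 in WT. N1-IC replicate 1 lay inside the WT range, and the log2 fold change of -0.55 ± 0.23 had an unadjusted p of 0.0509 and a limma adjusted p of 0.618.

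Members at the exit tunnel of the large subunit, through which the new chain leaves, were Rpl4, Rpl19, Rpl22, Rpl35 and Rpl39, and 0 of 5 passed. Rpl22, whose protein also binds RNA outside the ribosome and has a role in mouse T cell development, had 14.06, 14.03 and 14.08 in N1-IC, against 13.98, 13.96 and 14.05 in WT. The N1-IC values were higher but WT replicate 3 overlapped them, with a log2 fold change of 0.060 ± 0.080. Another probe set of Rpl22, whose suffix marks no match to other genes, gave -0.0043. Rpl4 had a log2 fold change of 0.022 ± 0.077 and Rpl35 one of -0.021 ± 0.079. Rpl41, a very short protein of the large subunit, had 14.46, 14.54 and 14.43 in N1-IC, against 14.53, 14.47 and 14.45 in WT, and its groups overlapped.

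Several ribosomal proteins bind Mdm2, the ubiquitin ligase of p53, when ribosome assembly fails. The 6 measured of this kind (Rpl11, Rps3, Rps7, Rps14, Rps27 and Rps27l) had log2 fold changes of -0.059 to 0.017, and 0 passed. Rpl11, which acts in a particle with ribosomal RNA, had 13.92, 13.91 and 13.94 in N1-IC, against 13.91, 13.89 and 13.91 in WT. Rps27l, a paralog of Rps27 known as a p53 target, had 12.86, 12.80 and 12.86 in N1-IC, against 12.81, 12.85 and 12.89 in WT, and the groups overlapped. Mdm2 itself had a log2 fold change of -0.032 ± 0.097 and Cdkn1a, another p53 target, one of -0.47 ± 0.21 (adjusted p = 0.618).

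Genes tied to human bone marrow failure had small differences. Of 20 listed Diamond-Blackfan anaemia genes 12 were measured as members, with 6 positive and 6 negative log2 fold changes from -0.059 to 0.017 and 0 past the threshold. Rps19, the gene most often mutated in that disease, had 13.87, 13.85 and 13.90 in N1-IC, against 13.93, 13.90 and 13.89 in WT. The groups overlapped, with a log2 fold change of -0.031 ± 0.078. Rps26, which contacts the messenger RNA near its exit, had -0.047 ± 0.082. Rps14, lost with part of a chromosome arm in a human myelodysplastic syndrome, had 13.77, 13.71 and 13.77 in N1-IC, against 13.76, 13.75 and 13.75 in WT, a log2 fold change of -0.0067 ± 0.078.

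Of the small subunit's other members, Rps6 is the substrate of the S6 kinases downstream of mTOR. It had 11.81, 11.60 and 12.02 in N1-IC, against 11.75, 11.79 and 11.82 in WT. N1-IC replicate 2 lay below and N1-IC replicate 3 above all WT arrays, with a log2 fold change of 0.024 ± 0.12. Rps25, used by some viral entry sites for translation, had the highest log2 fold change of the small-subunit members, 0.092 ± 0.18, with overlapping groups. Rpsa, also described as a laminin receptor at the cell surface, had 14.29, 14.30 and 14.32 in N1-IC, against 14.34, 14.32 and 14.31 in WT. Rps3a1 had a log2 fold change of 0.038 ± 0.079. At the decoding centre and along the messenger RNA path, 0 of 5 members passed (Rps2, Rps3, Rps15, Rps26 and Rps28), with log2 fold changes of -0.047 to 0.056.

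Since the groups differed in sex, the X-linked members are given on their own. There were 2, Rps4x and Rpl39, beside 47 autosomal ones. Rps4x had 13.65, 13.58 and 13.60 log2 units in N1-IC, against 13.58, 13.53 and 13.64 in WT. The groups overlapped, with a log2 fold change of 0.028 ± 0.082. Rpl39 had 7.16, 7.11 and 7.17 in N1-IC, against 7.07, 7.13 and 6.95 in WT, and its log2 fold change of 0.096 ± 0.088 also came with an overlap.

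Across arrays the strong members also differed within each group, and this spread was not tested against the difference between groups. Among the 36 members of at least 13 log2 units, WT replicate 2 held the lowest of the 6 values in 15 and N1-IC replicate 2 in 11. N1-IC replicate 3 and WT replicate 1 held the highest value in 11 each. In the large subunit the median deviation from a gene's own mean was 0.0044, -0.0015 and 0.020 for N1-IC replicates 1 to 3, against -0.0019, -0.021 and -0.000070 for WT replicates 1 to 3. In the small subunit it was 0.0062, -0.019 and 0.0031 in N1-IC, against 0.0095, -0.012 and 0.0068 in WT. In the large subunit all 3 WT medians were below 0 and N1-IC had medians on both sides of it. In the small subunit both groups had medians on both sides of 0.

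**Figure D4:**
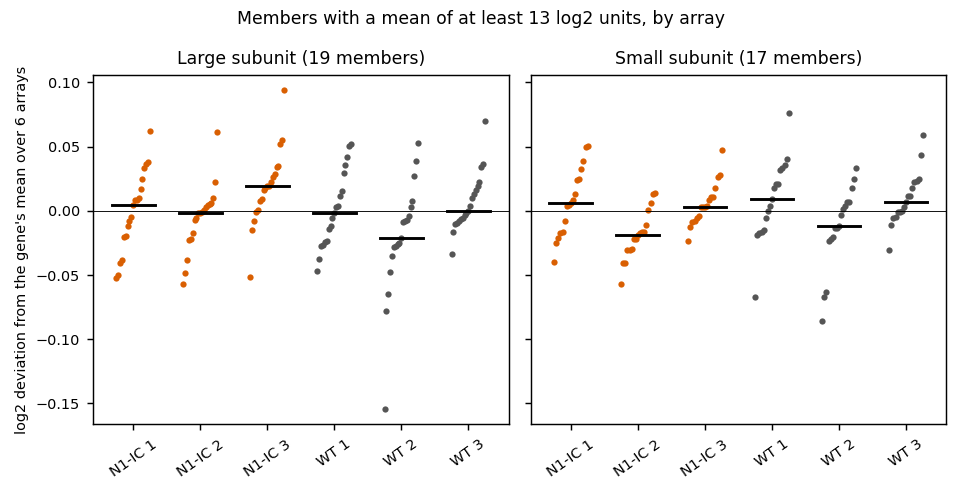
Log2 deviation of each member from its own mean over 6 arrays (vertical axis) for 19 large-subunit and 17 small-subunit members with a mean of at least 13 log2 units. Points are members, black bars are medians, N1-IC arrays are orange and WT arrays grey. The lowest large-subunit median is that of WT replicate 2 (-0.021) and the lowest small-subunit median that of N1-IC replicate 2 (-0.019).

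Paralogs are copies of ribosomal protein genes, some of them with narrower expression. Among members, the paralogs Rpl39l and Rps4l held the log2 fold changes farthest from 0. Rpl39l, a paralog of Rpl39 known for its expression in mouse male germ cells, had 9.80, 5.05 and 3.28 log2 units in N1-IC, against 3.63, 3.59 and 4.40 in WT. N1-IC replicate 1 alone was high, by 4.75 over the next array, while N1-IC replicate 3 was below all WT arrays. N1-IC minus WT came to 2.17 ± 1.58 (limma adjusted p = 0.677), and to 0.29 without N1-IC replicate 1. Over all genes, a single array stood at least 4 log2 units above the other 5 in 1 gene for N1-IC replicate 1, which is Rpl39l, and in 8 for WT replicate 2. It was so in 1 gene each for N1-IC replicate 3 and WT replicate 3, and in 0 genes for the remaining arrays.

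The 150 bases upstream of the Rpl39l start, on chr16:10170078-10170227 of the plus strand, are printed because this gene has the largest difference among members. Capitals mark CGGAAG, which occurs at positions -145 and -91 from the start, on the gene's own strand.
Rpl39l: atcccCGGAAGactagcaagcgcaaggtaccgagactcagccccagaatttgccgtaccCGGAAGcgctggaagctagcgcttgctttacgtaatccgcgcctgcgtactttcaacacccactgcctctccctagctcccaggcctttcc

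Rps4l, annotated by RefSeq as a transcribed pseudogene, had 4.14, 4.25 and 4.49 log2 units in N1-IC, against 4.13, 6.64 and 4.85 in WT. WT replicate 2, the array with the highest erythroid marker mean, was the high one. N1-IC minus WT came to -0.91 ± 0.61 (adjusted p = 0.667), and to -0.20 without WT replicate 2. Rpl3l, known from heart and skeletal muscle, had 4.46, 4.79 and 4.73 in N1-IC, against 5.10, 4.51 and 4.80 in WT. Other paralogs had strong signal. Rpl22l1, the paralog of Rpl22, had 13.22, 13.11 and 13.26 in N1-IC, against 13.14, 13.01 and 13.23 in WT, a log2 fold change of 0.072 ± 0.099. Rpl7l1, a paralog of Rpl7, had the highest log2 fold change of the large-subunit members with a mean of at least 10, 0.088 ± 0.10, and its groups overlapped.

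**Figure D5:**
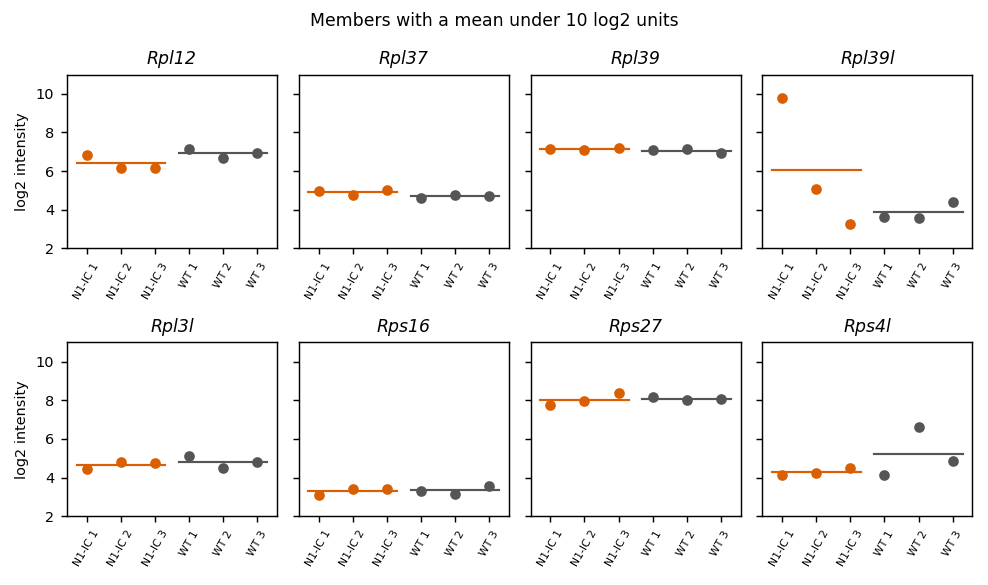
Log2 intensity (vertical axis) on each array for the 8 members whose probe set had a mean under 10 log2 units. Points are arrays, lines are group means, N1-IC is orange and WT grey. Rpl39l is high on N1-IC replicate 1 alone (9.80), and Rps4l on WT replicate 2 alone (6.64).

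Among the remaining low-signal members Rpl37 had 4.99, 4.79 and 5.03 log2 units in N1-IC, against 4.63, 4.77 and 4.69 in WT. The groups did not overlap, the gap was narrow, and the log2 fold change of 0.24 ± 0.10 had an unadjusted p of 0.0560 and an adjusted p of 0.618. Rps27 had 7.76, 7.94 and 8.37 in N1-IC, against 8.15, 8.03 and 8.07 in WT. Rps16 lay at 3.11 to 3.43 in N1-IC and 3.16 to 3.54 in WT, below the lower quartile of the arrays (3.86 to 3.91). No detection calls entered, and whether such values exceed background is unknown.

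Members with several probe sets gave a check within a gene. There were 24 such members among 105 member probe sets, and in 14 of the 24 the probe sets differed in the sign of the log2 fold change. Of 81 member probe sets with a mean of at least 10 log2 units, 78 had a log2 fold change between -0.1 and 0.1. The exceptions were probe sets of Rps3 (0.33), Rps14 (0.11) and Rpl41 (-0.29), singled out after their values were seen. This probe set of Rps3 had 12.18, 12.10 and 12.26 in N1-IC, against 11.77, 11.86 and 11.93 in WT. Its groups did not overlap, its limma unadjusted p was 0.0150 and its adjusted p over all single-symbol probe sets 0.622. The brightest probe set of Rps3 had 14.00, 13.97 and 13.99 in N1-IC, against 14.02, 13.98 and 14.01 in WT, so the probe sets of this gene disagreed. The 24 member probe sets under 10 log2 units had log2 fold changes of -0.92 to 2.17. Of all 105, 3 had a limma unadjusted p under 0.05, where 7.98% of all genes did. They were the probe set of Rps3 at 0.33 and low-signal ones of Rps20 (0.67) and Rps10 (-0.92), also named after their values were seen. Groups did not overlap in 10 of the 105 (9.52%), where 14.8% of all genes did. Both shares over all genes count the brightest probe set of each gene. No share over all probe sets was computed, so the 105 have no like background. By suffix, 21 of the 49 chosen probe sets match several transcripts of 1 gene, 11 hold probes that can match other genes, 2 match several genes alike and 15 have no such mark. Ribosomal protein genes have many processed copies in the mouse genome, so it is uncertain for the marked probe sets that the signal is that of 1 gene.

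The probe sets that name a ribosomal protein gene together with other genes were described as a set. There were 110, with a median log2 fold change of 0.0029 and a range of -0.75 to 0.40. The 86 with a mean of at least 10 log2 units ran from -0.083 to 0.40. All 81 single-symbol member probe sets of that level ran from -0.29 to 0.33. The brightest ones, which stand for the 41 members of that level, ran from -0.063 to 0.092. Of the 110 probe sets 61 were positive and 49 negative, and groups did not overlap in 16 (14.5%). Over all genes, each by its brightest probe set, the share was 14.8%.

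Other genes of the translation apparatus came from lists written with earlier results of these data known, and 0 genes passed in any list. The 5 measured genes on a list of Eef symbols had a median log2 fold change of -0.023. They ran from -0.071 (Eef1e1) to 0.047 (Eef1b2), with Eef2, the translocation factor, at -0.062 ± 0.091. The 11 measured subunits of initiation factor 3 had a median of -0.022, with Eif3c at -0.20 ± 0.097. The 10 other genes listed for TOP transcripts, which include the long noncoding RNA gene Gas5, had a median of 0.013. Their log2 fold changes were positive in 7 and negative in 3. Of these, Hnrnpa1, which encodes a splicing factor, had a log2 fold change of 0.059 ± 0.085. Fau, which encodes a small-subunit protein fused to a ubiquitin-like one, had 14.01, 14.00 and 13.99 in N1-IC, against 14.01, 13.99 and 13.96 in WT. The 11 measured mTOR and TOP regulator genes had a median of -0.059, with Mtor at -0.18 ± 0.089. The 11 genes of RNA polymerase I and its factors, which make ribosomal RNA, had a median of -0.073.

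Genes that assemble ribosomes are given beside their substrates; their direction was known from earlier results of these data and is no independent evidence. Of 18 measured chaperone and assembly genes 15 had a negative log2 fold change, with a median of -0.15. Ltv1, an assembly factor of the small subunit, had 10.43, 10.43 and 10.35 log2 units in N1-IC, against 10.75, 10.88 and 10.67 in WT, so that N1-IC minus WT was -0.37 ± 0.092 (adjusted p = 0.618). Eif6, which keeps the subunits apart, had 11.04, 11.02 and 11.12 in N1-IC, against 11.31, 11.34 and 11.23 in WT, at -0.24 ± 0.085. In both genes all N1-IC arrays lay below all WT arrays. The list mean was 10.73, 10.63 and 10.82 in N1-IC, against 10.86, 10.90 and 10.80 in WT, so N1-IC replicate 3 lay within the WT range. No gene of this list was called, and its difference from the ribosomal protein genes was not tested.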

How the data were processed

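The authors deposited 1 intensity per probe set and array on a linear scale. The submitters' processing notes name RMA, with no version. RMA brings arrays to nearly 1 distribution, so changes are relative to other genes of the array. Per the labels' protocols, the array targets were biotin-labelled cDNA amplified from 5 ng of RNA (NuGEN Ovation). No offset was added before log2 was taken. Of 45101 probe sets, 34958 had 1 symbol, 932 several and 9211 none in the platform annotation, and all 49 members matched a RefSeq gene table by Entrez identifier. N1-IC was compared with WT over 18194 genes with limma 3.58.1 under R 4.3.3, using lmFit and eBayes, with Benjamini-Hochberg adjustment. The fit was tested on simulated data. The number of arrays limits the precision. Named members were, in each subunit, the 5 of smallest p and the 3 highest and 3 lowest by fold change and by level. Then came the X-linked ones and those of the stalk, paralog and single-gene role lists. From each other list up to 3 of smallest p were named. Further members appear in full role lists or with a printed start window, or are marked as named after their values were seen. The bounds on level were chosen after the values were seen. Members and lists were chosen with earlier results of these data known.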

Additional observations from a re-analysis of the deposited data

How the results depend on the processing

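Under 18 alternatives 0 of the members was called in limma, with 0.446 as the smallest adjusted p (Rpl37 without WT replicate 3). Over 32 named members and these alternatives 532 of 568 log2 fold changes moved by less than the SD between replicates and 36 by more, with 39 sign changes and no call gained. The number of all genes called was 1. It was 5 with probe sets averaged within genes, 3 with a variance trend, 2 with array weights, 2 among genes of at least median level, 0 without genes of the sex chromosomes, 4 at an adjusted p under 0.1, and 0 to 5 when each array was left out (2 and 3 without N1-IC replicates 1 and 2, 5 without WT replicate 2, 0 without WT replicate 3). Arrays centred on their medians moved the median log2 fold change to 0.085 in the large and 0.063 in the small subunit, with 22 small-subunit members positive, and groups did not overlap in 4 large-subunit members and 1 small-subunit member. Large-subunit members whose groups did not overlap numbered 1 with mean probe sets, with renewed quantile normalization, with arrays centred on their strongest genes, among genes of at least median level, and among members of at least 10 log2 units (an alternative chosen after seeing the data). Small-subunit ones numbered 1 with arrays centred on their strongest genes. With an array left out, which makes an overlap less likely, these counts were 3 to 11 in the large and 4 to 7 in the small subunit. Over all genes the share was 22.8% to 34.1%. The highest large-subunit count, 11 of 26 (42.3%), was without WT replicate 3, where all genes had 34.1%, so nothing about the members is read from it. Leaving out an array gave medians of 0.0089 to 0.023 in the large and -0.022 to -0.00031 in the small subunit. The cause of these shifts was not tested.

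Replicate numbers are shared between the groups, but same-numbered arrays did not deviate together (correlations over genes of 0.0093, 0.061 and -0.11 for replicates 1, 2 and 3), so the numbers were not taken as pairs. With the replicate block 0 genes were called, where 1 was called without it, and 0 members in either subunit. The block left the medians at 0.015 and -0.0067. Not every sample correlated best with its own number.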
